A study of Arabidopsis thaliana with 24 samples.

Results

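The plastid of a plant cell keeps a small genome of its own, and the 69 plastid-encoded genes described here are those that a probe set of the Affymetrix ATH1 array reads as a single gene of that genome in the platform's gene table. The members were found by the plastid locus tags and the plastid chromosome of the gene annotation. Each of the 69 genes had 1 such probe set among the 22746 tested. Of the 78 protein-coding gene symbols of the plastid genome, 9 had no probe set naming them alone. There were 42 photosynthesis genes (psa, psb, pet, ndh and atp), 19 gene expression genes (rpl, rps and rpo), and 8 others, namely accD, ccsA, cemA, clpP, matK, rbcL, ycf3 and ycf4.

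Transcript levels were measured in roots of Arabidopsis thaliana Col-0 plants grown in hydroponic culture, which some labels give as 6 weeks old and others as seedlings. There were 24 arrays in 8 groups of 3. Wild-type plants and plants of the double mutant bzip1/bzip53 were either left untreated (control) or held in 150 mM NaCl for 1 h, for 3 h or for 6 h. The mutant carries lesions in the genes for a pair of bZIP transcription factors, and the labels do not describe its alleles. All salt treatments ended at the same point, shortly before the lights went off, while the labels give no harvest time of its own for the control. Titles name biological replicates but do not tell how plants or cultures were divided, and p-values therefore cover only array-to-array spread. BZIP53 was lower in the mutant than in wild type by a log2 difference of -1.38 without salt and -2.27, -2.14 and -1.93 at 1 h, 3 h and 6 h, which checks the genotype labels. BZIP1 had no probe set that the gene table names.

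Plastid genes encode the cores of the photosynthetic complexes, the ribosomal proteins and polymerase subunits that express them, and a few enzymes. They are transcribed by a bacterial-type polymerase, whose core subunits are encoded by the rpo genes and whose sigma factors come from the nucleus. Nuclear-encoded phage-type polymerases also transcribe them and are known to read rpoB, rpoC1, rpoC2 and accD. Many are cotranscribed as runs of neighbouring genes and then cut and edited. Root plastids carry the same genome as chloroplasts but do little photosynthesis, and they are known for nitrogen assimilation, fatty acid synthesis and starch storage. Plastid messages are mostly without the stable poly(A) tail of nuclear messages, and the labelling kit named in the labels primes from poly(A), so the arrays read only a part of each plastid transcript pool. In such bulk samples, fewer plastid genomes or plastid-bearing cells and less RNA from each cannot be told apart.

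A pair of arrays stood apart in their quality probes, and the first of them bears on every comparison with the untreated mutant. The first mutant control array had a poly(A) spike-in (dap) at a log2 level of 8.20, against at most 3.43 on the other 23 arrays, and the lowest 25S rRNA signal, 11.93, against 12.52 to 12.71 on the other 5 control arrays and 13.03 to 13.47 on the 18 salt arrays. Its actin 3′ minus 5′ gap, a measure of RNA breakdown or incomplete labelling, was 1.40 on the log2 scale, and its array weight in limma was 0.257, the lowest of all. The first mutant 6 h array had the widest gap, 1.57, and the gaps of the other 22 arrays ran from 0.62 to 0.97. Without that 6 h array, 20 plastid-encoded genes in place of 24 were called in the mutant at 6 h, 0 as before between the genotypes at 6 h, 2 in place of 6 in the difference of responses at 6 h and 2 in place of 6 in the mutant from 3 h to 6 h. Among the 18 salt arrays, those of the mutant at 3 h had the lowest 25S rRNA signals, 13.03 to 13.12, and the next group began at 13.15. The part of RNA quality in the plastid values was not tested. Array medians over all probe sets lay between 6.53 and 6.67. The main results that rest on the untreated mutant are given with and without its first array.

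The per-array medians show the course of the plastid-encoded genes. In wild type the median log2 level of the 69 genes was 7.86, 7.68 and 7.82 on the control arrays, 7.61, 7.42 and 7.77 at 1 h, 7.38, 7.11 and 7.39 at 3 h and 7.07, 7.05 and 7.05 at 6 h. In the mutant it was 6.62, 7.09 and 7.07 on the control arrays, 7.41, 7.70 and 7.80 at 1 h, 7.05, 7.25 and 7.00 at 3 h and 7.41, 7.17 and 7.54 at 6 h. The wild-type values thus ran downward over the hours in salt, and the mutant began low, stood near the wild type at 1 h, lay lower at 3 h and lay higher again at 6 h. In wild type 62 of the 69 genes had their lowest group mean at 6 h, as did 37.6% of all probe sets. In the mutant 58 had their highest group mean at 1 h, against 21.1% of all probe sets, and 42 had their lowest in the control, against 24.7%. Without the first mutant control array 56 had their highest mean at 1 h, against 19.9%, and 19 had their lowest in the control, against 24.8%.

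**Figure D1:**
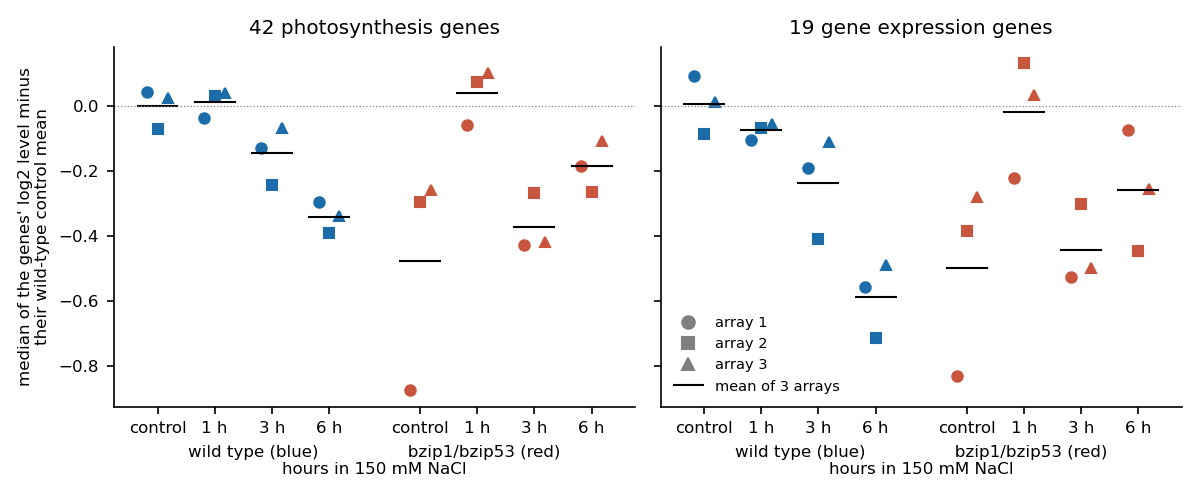
Median, over the 42 photosynthesis genes (left) and the 19 gene expression genes (right), of the log2 level minus the gene's wild-type control mean, on each of the 24 arrays; bars are means of 3 arrays. Wild type runs down with time in salt, and the first mutant control array lies lowest in both panels, at -0.87 and -0.83.

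The genes of photosystem I and of its assembly are described first. psaB encodes one of the large reaction-centre proteins of photosystem I, and ycf3 and ycf4 encode factors that assemble this complex. In wild type, psaB had log2 levels of 10.22, 10.09 and 10.20 without salt, 9.81, 9.92 and 9.82 at 1 h, 9.73, 9.80 and 9.68 at 3 h and 9.50, 9.55 and 9.39 at 6 h. In the mutant, psaB had log2 levels of 7.95, 8.97 and 9.47 without salt, 9.44, 9.99 and 9.92 at 1 h, 9.21, 9.28 and 9.27 at 3 h and 9.68, 9.38 and 9.85 at 6 h. The wild-type control arrays lay above all others of this gene, and the mutant control arrays spread widely, with the first lowest. In wild type psaB fell by 0.69 ± 0.23 (log2 difference, SE, adjusted p = 0.0188) at 6 h of salt, a call lost without the first wild-type control array or the third wild-type 6 h array (adjusted p from 0.0513 to 0.0576). Untreated mutant roots had less of it than untreated wild type, by -1.37 ± 0.23 (log2 difference, SE, adjusted p = 0.0123), or -0.95 (adjusted p = 0.0102) without the first mutant control array, and this call was lost without the first wild-type control array (adjusted p = 0.0559). After 1 h of salt psaB rose by 0.99 ± 0.23 (log2 difference, SE, adjusted p = 0.00358) in the mutant, or by 0.57 (adjusted p = 0.011) without that array.

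ycf3 acts early in the assembly of photosystem I. In wild type, ycf3 had log2 levels of 8.17, 8.18 and 8.36 without salt, 7.92, 7.97 and 7.86 at 1 h, 7.82, 7.66 and 7.93 at 3 h and 7.38, 7.20 and 7.19 at 6 h. In the mutant, ycf3 had log2 levels of 5.99, 7.09 and 7.27 without salt, 7.32, 8.11 and 8.12 at 1 h, 7.06, 7.39 and 6.97 at 3 h and 7.97, 7.54 and 7.78 at 6 h. All 3 wild-type arrays at 6 h lay below all 3 control arrays, while all 3 mutant arrays at 6 h lay above all 3 mutant control arrays. In wild type ycf3 fell by 0.98 ± 0.24 (log2 difference, SE, adjusted p = 0.0021) at 6 h, and in the mutant it rose by 0.98 ± 0.24 (log2 difference, SE, adjusted p = 0.00202). Without the first mutant control array the mutant difference at 6 h was 0.58 (adjusted p = 0.0139). ycf4 encodes the other assembly factor. In wild type, ycf4 had log2 levels of 6.96, 7.31 and 7.78 without salt, 7.33, 7.24 and 7.11 at 1 h, 7.17, 7.00 and 6.99 at 3 h and 6.84, 6.56 and 6.53 at 6 h. In the mutant, ycf4 had log2 levels of 5.08, 6.40 and 6.40 without salt, 7.01, 7.24 and 7.45 at 1 h, 6.47, 6.70 and 6.40 at 3 h and 6.99, 6.83 and 7.05 at 6 h. The wild-type control arrays of ycf4 spread more than those of ycf3, and the first mutant control array was again lowest. ycf4 fell by 0.71 ± 0.25 (log2 difference, SE, adjusted p = 0.0238) in wild type at 6 h, and in the mutant it rose by 1.27 ± 0.25 (log2 difference, SE, adjusted p = 0.000808) at 1 h, or by 0.83 (adjusted p = 0.00182) without the first control array. The wild-type call of ycf4 at 6 h was lost without the third wild-type control array or the second or the third wild-type 6 h array (adjusted p from 0.0649 to 0.14), and the difference without the third control array was -0.49.

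The photosystem II genes with named values are psbB, which encodes the core antenna protein CP47, and psbM and psbZ, which encode small subunits. In wild type, psbB had log2 levels of 4.28, 4.45 and 4.48 without salt, 4.81, 4.78 and 4.85 at 1 h, 4.38, 4.43 and 4.48 at 3 h and 4.1, 4.34 and 4.42 at 6 h. In the mutant, psbB had log2 levels of 4.03, 4.22 and 4.38 without salt, 4.37, 4.46 and 4.46 at 1 h, 4.31, 4.42 and 4.05 at 3 h and 4.67, 4.41 and 4.47 at 6 h. These levels lie near the background, under a log2 level of 5, so that differences have no exact size. psbB rose by 0.41 ± 0.10 (log2 difference, SE, adjusted p = 0.00625) in wild type at 1 h, where all 3 arrays lay above all other wild-type arrays. psbM is a small membrane subunit of photosystem II. In wild type, psbM had log2 levels of 11.46, 11.32 and 11.50 without salt, 11.42, 11.46 and 11.44 at 1 h, 11.46, 11.37 and 11.57 at 3 h and 11.54, 11.30 and 11.41 at 6 h. In the mutant, psbM had log2 levels of 11.28, 11.52 and 11.47 without salt, 11.71, 11.79 and 11.63 at 1 h, 11.30, 11.32 and 11.36 at 3 h and 11.96, 11.59 and 11.77 at 6 h. psbM moved little in wild type, where its differences from control ran from -0.01 to 0.04. In the mutant psbM rose by 0.35 ± 0.09 (log2 difference, SE, adjusted p = 0.00329) at 6 h, or by 0.28 (adjusted p = 0.0239) without the first control array. psbZ is another small subunit. In wild type, psbZ had log2 levels of 8.36, 8.01 and 8.15 without salt, 7.78, 7.85 and 7.84 at 1 h, 7.46, 7.50 and 7.59 at 3 h and 7.20, 7.10 and 7.31 at 6 h. In the mutant, psbZ had log2 levels of 7.15, 7.63 and 7.77 without salt, 7.63, 7.94 and 7.88 at 1 h, 6.85, 7.39 and 7.00 at 3 h and 7.61, 7.30 and 7.66 at 6 h. The wild-type levels of psbZ stepped down without overlap between control and each salt time. psbZ fell by 0.66 ± 0.15 (log2 difference, SE, adjusted p = 0.00157) at 3 h and fell by 0.97 ± 0.15 (log2 difference, SE, adjusted p = 1.88e-05) at 6 h in wild type. In the mutant psbZ fell by 0.43 ± 0.15 (log2 difference, SE, adjusted p = 0.0216) at 3 h, with -0.62 (adjusted p = 0.00134) without the first control array, and its difference at 6 h was 0.01 (adjusted p = 0.977), or -0.18 (adjusted p = 0.332) without that array. The 3 h call in the mutant was lost without the second or the third mutant control array or the first or the third mutant 3 h array (adjusted p from 0.0695 to 0.129).

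The cytochrome b6f complex carries electrons between the photosystems. petB encodes cytochrome b6 of this complex, and petG and petL encode small subunits. In wild type, petB had log2 levels of 10.33, 10.06 and 10.11 without salt, 10.13, 10.36 and 10.27 at 1 h, 10.10, 9.90 and 10.28 at 3 h and 9.99, 9.92 and 9.79 at 6 h. In the mutant, petB had log2 levels of 9.74, 10.09 and 10.21 without salt, 10.13, 10.45 and 10.31 at 1 h, 9.86, 10.04 and 9.87 at 3 h and 9.98, 9.94 and 10.19 at 6 h. petB passed the test in no comparison with control or between genotypes, with differences from control of -0.26 at 6 h in wild type and 0.28 at 1 h in the mutant, or 0.14 without the first mutant control array. petL comes next in the complex. In wild type, petL had log2 levels of 4.97, 4.99 and 4.79 without salt, 5.19, 5.59 and 5.48 at 1 h, 5.24, 4.99 and 5.37 at 3 h and 4.71, 4.18 and 4.42 at 6 h. In the mutant, petL had log2 levels of 3.45, 3.95 and 4.26 without salt, 5.15, 5.56 and 5.36 at 1 h, 4.76, 4.99 and 4.86 at 3 h and 4.97, 4.75 and 5.38 at 6 h. petL lies near the background, and its 3 mutant control arrays lay below all salt-treated mutant arrays. In wild type petL fell by 0.48 ± 0.19 (log2 difference, SE, adjusted p = 0.042) at 6 h, with 1 h and 3 h differences of 0.50 (adjusted p = 0.0561) and 0.28 (adjusted p = 0.264). This 6 h call was lost without the first or the second wild-type control array or the second or the third wild-type 6 h array (adjusted p from 0.0894 to 0.182), and also with array weights (adjusted p = 0.0816) and with arrays centred on their median (adjusted p = 0.0555). In the mutant petL rose by 1.48 ± 0.19 (log2 difference, SE, adjusted p = 8.1e-06) at 1 h, rose by 0.99 ± 0.19 (log2 difference, SE, adjusted p = 0.000192) at 3 h and rose by 1.15 ± 0.19 (log2 difference, SE, adjusted p = 3.43e-05) at 6 h. Without the first control array these differences were 1.26, 0.77 and 0.93, and each passed the test. petG is read from the same run of genes as petL. In wild type, petG had log2 levels of 3.81, 3.87 and 3.66 without salt, 4.56, 4.61 and 4.51 at 1 h, 4.34, 3.96 and 4.22 at 3 h and 3.85, 3.51 and 3.58 at 6 h. In the mutant, petG had log2 levels of 2.82, 3.52 and 3.45 without salt, 4.21, 4.73 and 4.62 at 1 h, 3.74, 3.94 and 3.59 at 3 h and 3.79, 3.91 and 4.17 at 6 h. All 24 values of petG were under 5, near the background. petG rose by 0.78 ± 0.17 (log2 difference, SE, adjusted p = 0.00154) in wild type at 1 h and rose by 1.26 ± 0.17 (log2 difference, SE, adjusted p = 1.3e-05) in the mutant at 1 h, or by 1.04 (adjusted p = 7.31e-05) without the first control array, the one member of the cytochrome complex that passed the test upward in both genotypes at that time.

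The ndh genes encode subunits of the NADH dehydrogenase-like complex, which serves cyclic electron flow and respiration in plastids. In wild type, ndhC had log2 levels of 9.31, 9.21 and 9.02 without salt, 9.17, 9.21 and 8.95 at 1 h, 8.77, 8.73 and 8.92 at 3 h and 8.41, 7.92 and 8.52 at 6 h. In the mutant, ndhC had log2 levels of 9.56, 9.03 and 9.18 without salt, 9.19, 9.37 and 9.21 at 1 h, 8.48, 8.68 and 8.53 at 3 h and 8.80, 8.45 and 8.87 at 6 h. ndhC was not low in the untreated mutant, where its difference from wild type was 0.08 (adjusted p = 0.915), or -0.07 (adjusted p = 0.996) without the first mutant control array. ndhC fell by 0.89 ± 0.15 (log2 difference, SE, adjusted p = 4.95e-05) in wild type at 6 h, and in the mutant it fell by 0.69 ± 0.15 (log2 difference, SE, adjusted p = 0.000669) at 3 h and fell by 0.55 ± 0.15 (log2 difference, SE, adjusted p = 0.00435) at 6 h. Without the first mutant control array the mutant differences were -0.54 (adjusted p = 0.00653) and -0.40 (adjusted p = 0.0368). ndhI encodes an iron-sulfur subunit of the complex. In wild type, ndhI had log2 levels of 10.16, 10.08 and 10.26 without salt, 10.16, 10.16 and 10.27 at 1 h, 9.98, 9.92 and 10.11 at 3 h and 9.77, 9.64 and 9.89 at 6 h. In the mutant, ndhI had log2 levels of 9.77, 9.98 and 10.09 without salt, 10.11, 10.24 and 10.17 at 1 h, 9.56, 9.84 and 9.66 at 3 h and 9.98, 9.79 and 9.91 at 6 h. ndhI varied little between arrays of a group. It fell by 0.40 ± 0.09 (log2 difference, SE, adjusted p = 0.00133) in wild type at 6 h and fell by 0.26 ± 0.09 (log2 difference, SE, adjusted p = 0.0301) in the mutant at 3 h, with -0.34 (adjusted p = 0.0062) without the first control array, and the mutant call was lost without the second or the third mutant control array or the first or the third mutant 3 h array (adjusted p from 0.0784 to 0.153).

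ndhJ and ndhK encode further subunits of the arm that takes up electrons. In wild type, ndhJ had log2 levels of 6.02, 5.69 and 5.89 without salt, 5.96, 6.07 and 5.63 at 1 h, 5.54, 5.67 and 5.82 at 3 h and 5.34, 4.87 and 5.15 at 6 h. In the mutant, ndhJ had log2 levels of 4.11, 4.82 and 5.55 without salt, 5.54, 6.14 and 5.86 at 1 h, 4.73, 4.92 and 4.95 at 3 h and 5.16, 5.41 and 5.44 at 6 h. Some ndhJ values in both genotypes were under 5, near the background. ndhJ fell by 0.75 ± 0.24 (log2 difference, SE, adjusted p = 0.0125) in wild type at 6 h and rose by 1.02 ± 0.24 (log2 difference, SE, adjusted p = 0.00337) in the mutant at 1 h, or by 0.66 (adjusted p = 0.0233) without the first control array. At 3 h of salt the mutant had less ndhJ than wild type, by -0.81 ± 0.24 (log2 difference, SE, adjusted p = 0.0352). ndhJ no longer passed in wild type at 6 h without the first wild-type control array or the second wild-type 6 h array (adjusted p from 0.0502 to 0.0604), and between genotypes at 3 h it no longer passed without any single one of its 6 arrays (adjusted p from 0.0637 to 0.136). ndhK is the neighbour of ndhJ. In wild type, ndhK had log2 levels of 5.97, 6.17 and 5.97 without salt, 5.80, 5.76 and 5.96 at 1 h, 5.55, 5.53 and 5.51 at 3 h and 5.34, 5.39 and 5.04 at 6 h. In the mutant, ndhK had log2 levels of 4.62, 5.30 and 5.50 without salt, 5.37, 5.84 and 5.90 at 1 h, 4.88, 5.15 and 4.72 at 3 h and 4.98, 5.30 and 4.88 at 6 h. ndhK lay lower in each later wild-type group, without overlap between control and any salt time. ndhK fell by 0.51 ± 0.18 (log2 difference, SE, adjusted p = 0.0337) at 3 h and fell by 0.78 ± 0.18 (log2 difference, SE, adjusted p = 0.00123) at 6 h in wild type. The 3 h call was lost without any single one of its 6 arrays (adjusted p from 0.0506 to 0.115) and after a second quantile normalization (adjusted p = 0.0593). In the untreated mutant it was lower than in wild type, by -0.90 ± 0.18 (log2 difference, SE, adjusted p = 0.0425), and this difference was -0.64 (adjusted p = 0.175) without the first mutant control array. That call was also lost without any one wild-type control array or the second mutant control array (adjusted p from 0.0526 to 0.154).

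The atp genes encode subunits of the plastid ATP synthase. atpA encodes the alpha subunit of the catalytic head, atpE the epsilon subunit and atpH the subunit of the membrane ring. In wild type, atpA had log2 levels of 9.45, 9.29 and 9.39 without salt, 9.34, 9.45 and 9.50 at 1 h, 9.49, 9.28 and 9.39 at 3 h and 9.16, 9.11 and 9.04 at 6 h. In the mutant, atpA had log2 levels of 6.76, 8.84 and 9.07 without salt, 9.32, 9.57 and 9.60 at 1 h, 8.87, 9.19 and 8.95 at 3 h and 9.44, 9.17 and 9.52 at 6 h. In wild type atpA stayed within a narrow range, with a difference of -0.28 (adjusted p = 0.559) at 6 h, while the first mutant control array lay far below the rest. atpA rose by 1.27 ± 0.34 (log2 difference, SE, adjusted p = 0.01) in the mutant at 1 h and rose by 1.15 ± 0.34 (log2 difference, SE, adjusted p = 0.00867) at 6 h, and these differences were 0.54 (adjusted p = 0.00253) and 0.42 (adjusted p = 0.00611) without that array. atpH encodes the ring subunit. In wild type, atpH had log2 levels of 7.48, 7.56 and 7.83 without salt, 7.66, 7.74 and 7.68 at 1 h, 7.68, 7.44 and 7.39 at 3 h and 7.27, 7.09 and 7.12 at 6 h. In the mutant, atpH had log2 levels of 5.01, 6.87 and 6.89 without salt, 7.44, 7.76 and 7.86 at 1 h, 7.08, 7.29 and 7.00 at 3 h and 7.43, 7.32 and 7.71 at 6 h. Every salt-treated mutant array of atpH lay above every mutant control array. atpH rose by 1.43 ± 0.30 (log2 difference, SE, adjusted p = 0.00158) at 1 h, rose by 0.87 ± 0.30 (log2 difference, SE, adjusted p = 0.0244) at 3 h and rose by 1.23 ± 0.30 (log2 difference, SE, adjusted p = 0.00205) at 6 h in the mutant. Without the first control array the differences were 0.81, 0.24 (adjusted p = 0.164) and 0.61, of which the 3 h one no longer passed, as was the case without the second mutant 3 h array (adjusted p = 0.0795). atpE encodes the epsilon subunit. In wild type, atpE had log2 levels of 12.29, 12.11 and 12.13 without salt, 12.12, 12.23 and 12.19 at 1 h, 12.19, 12.04 and 12.28 at 3 h and 12.25, 12.14 and 12.17 at 6 h. In the mutant, atpE had log2 levels of 11.11, 12.18 and 12.09 without salt, 12.18, 12.41 and 12.23 at 1 h, 12.08, 12.06 and 11.99 at 3 h and 12.24, 12.07 and 12.15 at 6 h. atpE stood apart on 1 array, the first of the mutant control, and its difference of 0.48 (adjusted p = 0.0496) in the mutant at 1 h became 0.13 (adjusted p = 0.322) without it. The call was also lost without any one mutant 1 h array (adjusted p from 0.0711 to 0.149).

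rbcL encodes the large subunit of Rubisco, the enzyme that fixes carbon dioxide. In wild type, rbcL had log2 levels of 9.14, 8.89 and 8.97 without salt, 8.90, 8.93 and 9.03 at 1 h, 8.63, 8.52 and 8.59 at 3 h and 8.12, 8.21 and 8.07 at 6 h. In the mutant, rbcL had log2 levels of 7.84, 8.43 and 8.57 without salt, 8.70, 9.07 and 8.93 at 1 h, 8.01, 8.20 and 8.08 at 3 h and 8.50, 8.15 and 8.60 at 6 h. The wild-type control and 1 h arrays lay above all 3 h and 6 h arrays. rbcL fell by 0.42 ± 0.14 (log2 difference, SE, adjusted p = 0.0273) at 3 h and fell by 0.86 ± 0.14 (log2 difference, SE, adjusted p = 4.78e-05) at 6 h in wild type, the latter a 1.82-fold drop, and the 3 h call was lost without the first wild-type control array or the second or the third wild-type 3 h array (adjusted p from 0.0564 to 0.11). In the mutant rbcL rose by 0.62 ± 0.14 (log2 difference, SE, adjusted p = 0.00336) at 1 h, or by 0.40 (adjusted p = 0.0222) without the first control array. It was lower in the untreated mutant than in wild type, by -0.72 ± 0.14 (log2 difference, SE, adjusted p = 0.0423), and this difference was -0.50 (adjusted p = 0.154) without that array. The genotype call was also lost without any one wild-type control array (adjusted p from 0.0737 to 0.186).

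Among the genes of the bacterial-type polymerase, rpoC2 encodes the beta″ subunit and rpoA the alpha subunit. In wild type, rpoC2 had log2 levels of 7.25, 7.28 and 7.60 without salt, 7.19, 7.04 and 7.33 at 1 h, 7.14, 6.83 and 6.95 at 3 h and 6.52, 6.40 and 6.46 at 6 h. In the mutant, rpoC2 had log2 levels of 6.65, 6.14 and 6.53 without salt, 6.94, 7.07 and 7.18 at 1 h, 6.50, 6.64 and 6.48 at 3 h and 7.29, 6.65 and 7.07 at 6 h. For rpoC2 the second, not the first, mutant control array was lowest, and all 3 lay below all wild-type control arrays. rpoC2 fell by 0.41 ± 0.15 (log2 difference, SE, adjusted p = 0.0356) at 3 h and fell by 0.92 ± 0.15 (log2 difference, SE, adjusted p = 2.94e-05) at 6 h in wild type, and the 3 h call was lost without the third wild-type control array or the second or the third wild-type 3 h array (adjusted p from 0.082 to 0.17), or after a second quantile normalization. Untreated mutant roots had less of it, by -0.94 ± 0.15 (log2 difference, SE, adjusted p = 0.00568), or -1.05 (adjusted p = 0.00765) without the first control array. All 3 mutant arrays at 1 h lay above all 3 mutant control arrays. In the mutant rpoC2 rose by 0.62 ± 0.15 (log2 difference, SE, adjusted p = 0.00368) at 1 h and rose by 0.57 ± 0.15 (log2 difference, SE, adjusted p = 0.00303) at 6 h, and without the first control array by 0.73 (adjusted p = 0.00246) and 0.67 (adjusted p = 0.00157). rpoA is read apart from the other rpo genes. In wild type, rpoA had log2 levels of 10.66, 10.42 and 10.55 without salt, 10.50, 10.48 and 10.47 at 1 h, 10.37, 10.19 and 10.55 at 3 h and 9.99, 10.00 and 10.29 at 6 h. In the mutant, rpoA had log2 levels of 10.33, 10.36 and 10.51 without salt, 10.46, 10.83 and 10.58 at 1 h, 10.05, 10.24 and 10.26 at 3 h and 10.74, 10.34 and 10.44 at 6 h. The untreated groups overlapped for rpoA, with a genotype difference of -0.14 (adjusted p = 0.746), or -0.10 (adjusted p = 0.983) without the first mutant control array. It fell by 0.45 ± 0.12 (log2 difference, SE, adjusted p = 0.00364) in wild type at 6 h, and in the mutant its differences from control were 0.22 (adjusted p = 0.192) at 1 h and 0.10 (adjusted p = 0.504) at 6 h, or 0.19 (adjusted p = 0.383) and 0.07 (adjusted p = 0.722) without that array.

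The ribosomal protein genes differed among themselves. rpl20 and rpl33 encode proteins of the large subunit of the plastid ribosome. In wild type, rpl20 had log2 levels of 6.72, 6.91 and 7.01 without salt, 6.85, 6.98 and 6.88 at 1 h, 6.88, 6.42 and 6.89 at 3 h and 6.41, 6.15 and 6.06 at 6 h. In the mutant, rpl20 had log2 levels of 3.93, 5.43 and 5.91 without salt, 6.58, 7.12 and 6.97 at 1 h, 6.00, 6.62 and 5.88 at 3 h and 6.85, 6.43 and 6.54 at 6 h. Among the genes called between the untreated groups, rpl20 had the largest difference of means, with no mutant control array within the range of wild type. It was lower in the untreated mutant, by -1.79 ± 0.32 (log2 difference, SE, adjusted p = 0.0164), a 3.47-fold difference, or -1.21 (adjusted p = 0.0257) without the first control array. This call was lost without any one wild-type control array (adjusted p from 0.0518 to 0.063). In the mutant rpl20 rose by 1.80 ± 0.32 (log2 difference, SE, adjusted p = 0.000284) at 1 h, or by 1.22 (adjusted p = 0.000321) without that array, and it rose by 1.52 ± 0.32 (log2 difference, SE, adjusted p = 0.000478) at 6 h, or by 0.94 (adjusted p = 0.00102) without that array. rpl33 encodes the second of these proteins. In wild type, rpl33 had log2 levels of 7.91, 7.74 and 7.82 without salt, 7.56, 7.35 and 7.77 at 1 h, 7.12, 7.10 and 7.34 at 3 h and 6.91, 6.58 and 7.03 at 6 h. In the mutant, rpl33 had log2 levels of 7.48, 7.67 and 7.64 without salt, 7.41, 7.51 and 7.76 at 1 h, 7.14, 7.23 and 7.10 at 3 h and 7.13, 6.96 and 7.18 at 6 h. rpl33 ran down with salt in both genotypes. It fell by 0.63 ± 0.12 (log2 difference, SE, adjusted p = 0.000308) at 3 h and fell by 0.98 ± 0.12 (log2 difference, SE, adjusted p = 1.25e-06) at 6 h in wild type, and fell by 0.44 ± 0.12 (log2 difference, SE, adjusted p = 0.00538) at 3 h and fell by 0.51 ± 0.12 (log2 difference, SE, adjusted p = 0.00157) at 6 h in the mutant. Without the first mutant control array the mutant differences were -0.50 and -0.56, and both passed.

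rps15 encodes a protein of the small ribosomal subunit. In wild type, rps15 had log2 levels of 7.86, 7.68 and 7.60 without salt, 7.18, 7.30 and 7.18 at 1 h, 6.88, 6.85 and 7.12 at 3 h and 6.72, 6.62 and 6.79 at 6 h. In the mutant, rps15 had log2 levels of 5.74, 6.46 and 6.85 without salt, 6.91, 7.70 and 7.45 at 1 h, 6.37, 6.79 and 6.40 at 3 h and 7.14, 6.62 and 6.93 at 6 h. For rps15 each wild-type salt group lay below the control without overlap. rps15 fell by 0.76 ± 0.21 (log2 difference, SE, adjusted p = 0.0083) at 3 h and fell by 1.00 ± 0.21 (log2 difference, SE, adjusted p = 0.000607) at 6 h, the lowest 6 h difference of any member in wild type. The untreated mutant had less of it, by -1.36 ± 0.21 (log2 difference, SE, adjusted p = 0.00568), or -1.06 (adjusted p = 0.0278) without the first control array. rpl14 encodes a protein of the large subunit. In wild type, rpl14 had log2 levels of 11.09, 10.99 and 10.97 without salt, 10.93, 11.03 and 10.88 at 1 h, 10.82, 10.61 and 10.91 at 3 h and 10.66, 10.24 and 10.61 at 6 h. In the mutant, rpl14 had log2 levels of 10.06, 10.54 and 10.75 without salt, 10.85, 11.24 and 11.08 at 1 h, 10.51, 10.75 and 10.52 at 3 h and 10.84, 10.65 and 10.76 at 6 h. rpl14 fell by 0.52 ± 0.14 (log2 difference, SE, adjusted p = 0.00558) in wild type at 6 h and rose by 0.61 ± 0.14 (log2 difference, SE, adjusted p = 0.00389) in the mutant at 1 h, or by 0.41 (adjusted p = 0.0301) without the first control array. rps3 encodes a protein of the small subunit. In wild type, rps3 had log2 levels of 11.05, 10.93 and 11.00 without salt, 11.02, 11.05 and 11.09 at 1 h, 10.99, 10.84 and 11.21 at 3 h and 10.78, 10.55 and 11.00 at 6 h. In the mutant, rps3 had log2 levels of 10.84, 10.96 and 11.00 without salt, 11.15, 11.34 and 11.23 at 1 h, 10.81, 11.07 and 10.92 at 3 h and 11.29, 11.08 and 11.06 at 6 h. rps3 moved little in either genotype, and its mutant difference of 0.31 (adjusted p = 0.0428) at 1 h became 0.26 (adjusted p = 0.142) without that array. The call was lost without any other single array of the pair of groups as well (adjusted p from 0.0509 to 0.142). rps14 is also a gene of the small subunit. In wild type, rps14 had log2 levels of 4.21, 4.12 and 3.95 without salt, 4.75, 4.48 and 4.51 at 1 h, 4.28, 4.31 and 4.38 at 3 h and 4.18, 4.18 and 4.23 at 6 h. In the mutant, rps14 had log2 levels of 3.63, 4.22 and 3.95 without salt, 4.60, 4.25 and 4.62 at 1 h, 4.12, 4.07 and 4.11 at 3 h and 4.73, 4.32 and 4.39 at 6 h. All values of rps14 were near the background. rps14 rose by 0.49 ± 0.13 (log2 difference, SE, adjusted p = 0.00861) in wild type (not called without the first wild-type 1 h array (adjusted p = 0.0567)) and rose by 0.56 ± 0.13 (log2 difference, SE, adjusted p = 0.00343) in the mutant at 1 h, or by 0.41 (adjusted p = 0.0273) without the first mutant control array.

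The last genes with named values serve other tasks. matK encodes a maturase that helps to splice plastid introns, accD a subunit of the acetyl-CoA carboxylase of fatty acid synthesis, and ccsA a protein of cytochrome c assembly. In wild type, matK had log2 levels of 9.62, 9.54 and 9.70 without salt, 9.43, 9.56 and 9.33 at 1 h, 9.32, 9.20 and 9.23 at 3 h and 9.00, 8.99 and 8.76 at 6 h. In the mutant, matK had log2 levels of 8.38, 8.78 and 8.98 without salt, 9.35, 9.51 and 9.57 at 1 h, 8.81, 8.77 and 8.87 at 3 h and 9.24, 9.08 and 9.39 at 6 h. The mutant control and 3 h arrays of matK lay below all wild-type arrays at those conditions. matK fell by 0.37 ± 0.12 (log2 difference, SE, adjusted p = 0.0187) at 3 h and fell by 0.70 ± 0.12 (log2 difference, SE, adjusted p = 5.28e-05) at 6 h in wild type, while in the mutant it rose by 0.76 ± 0.12 (log2 difference, SE, adjusted p = 7.04e-05) at 1 h and rose by 0.52 ± 0.12 (log2 difference, SE, adjusted p = 0.000961) at 6 h. At 3 h matK no longer passed in wild type without the third wild-type control array or the second wild-type 3 h array (adjusted p from 0.0649 to 0.0676). Without the first control array the mutant differences were 0.60 (adjusted p = 0.000341) and 0.36 (adjusted p = 0.00777). accD is the fatty acid synthesis gene. In wild type, accD had log2 levels of 9.49, 9.32 and 9.44 without salt, 9.24, 9.37 and 9.26 at 1 h, 9.26, 8.75 and 9.06 at 3 h and 8.78, 8.82 and 8.58 at 6 h. In the mutant, accD had log2 levels of 6.53, 8.53 and 8.88 without salt, 8.89, 9.35 and 9.32 at 1 h, 8.47, 8.74 and 8.53 at 3 h and 8.53, 8.69 and 8.95 at 6 h. The first mutant control array of accD lay at 6.53, below 8.53 and 8.88 on the other arrays of its group. accD rose by 1.21 ± 0.35 (log2 difference, SE, adjusted p = 0.0169) in the mutant at 1 h, or by 0.48 (adjusted p = 0.0379) without that array, and this call was lost without the second or the third mutant 1 h array (adjusted p from 0.0522 to 0.059). The genotype difference of accD without salt was -1.44 (adjusted p = 0.106), or -0.72 (adjusted p = 0.111) without the first mutant control array. ccsA is the cytochrome assembly gene. In wild type, ccsA had log2 levels of 8.74, 8.78 and 8.95 without salt, 8.49, 8.34 and 8.50 at 1 h, 8.22, 8.18 and 8.28 at 3 h and 8.00, 8.13 and 8.04 at 6 h. In the mutant, ccsA had log2 levels of 8.12, 8.47 and 8.56 without salt, 8.38, 8.49 and 8.56 at 1 h, 8.09, 8.11 and 8.17 at 3 h and 8.43, 7.98 and 8.34 at 6 h. With all arrays ccsA was the one member called lower in wild type at all 3 times. It fell by 0.38 ± 0.11 (log2 difference, SE, adjusted p = 0.0153) at 1 h, fell by 0.60 ± 0.11 (log2 difference, SE, adjusted p = 0.000233) at 3 h and fell by 0.77 ± 0.11 (log2 difference, SE, adjusted p = 8.73e-06) at 6 h, and the 1 h call was lost without the third wild-type control array or the second wild-type 1 h array (adjusted p from 0.0655 to 0.0776). In the mutant its difference at 6 h was -0.13 (adjusted p = 0.359), and -0.26 (adjusted p = 0.0486) without the first control array.

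**Figure D2:**
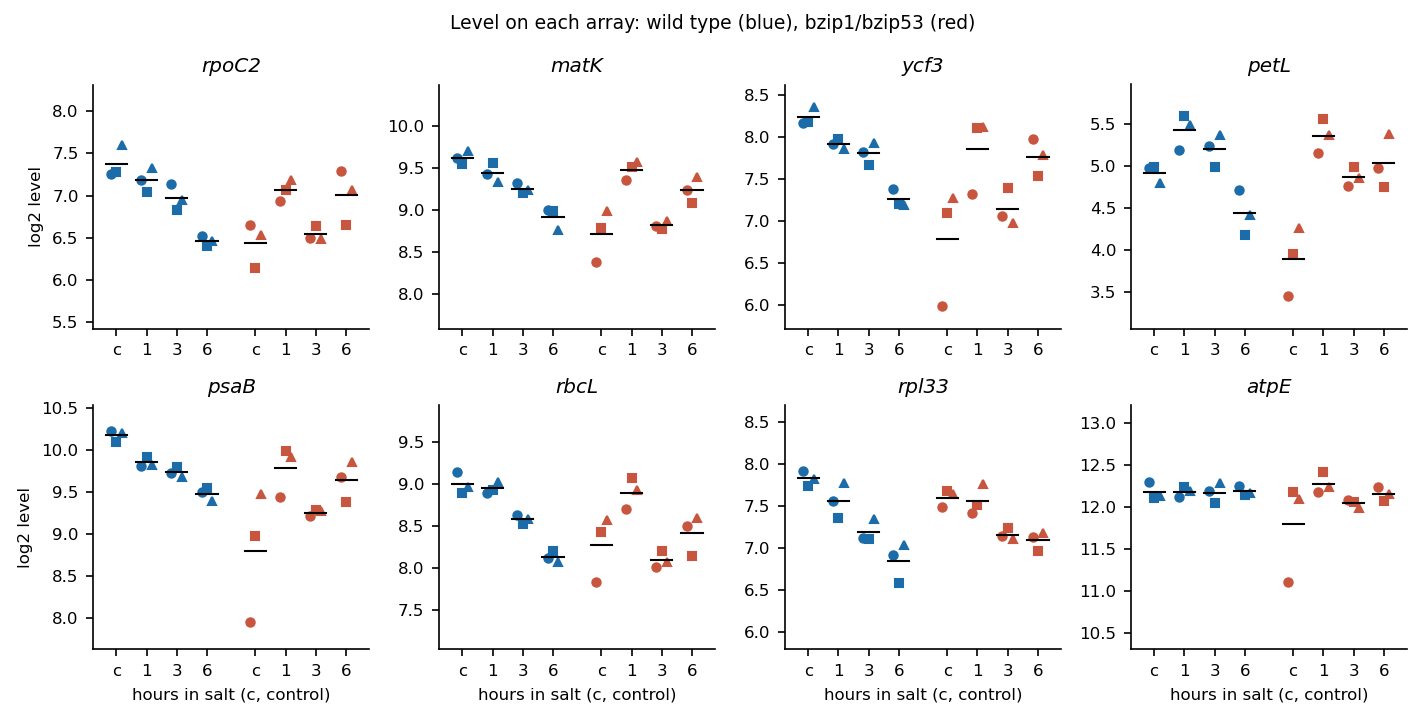
Log2 level of 8 plastid-encoded genes on each array, in wild type (blue) and bzip1/bzip53 (red), without salt (c) and after 1 h, 3 h and 6 h; circles, squares and triangles are arrays 1, 2 and 3, bars are means of 3 arrays, and all panels span the same range. The wild-type levels of rpoC2, matK, psaB, rbcL and rpl33 run down to 6 h, and atpE stands apart only on the first mutant control array, at 11.11.

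In wild type, the median of the plastid-encoded genes moved downward as salt treatment went on. Their share called lower exceeded that of all probe sets only at 6 h. At 1 h, 3 of the 69 genes had risen, namely petG, psbB and rps14, against 9.33% of all probe sets, and 1, ccsA, had fallen, against 15.4%. At 3 h, 14 had fallen, against 23.5%, and 0 had risen, against 12.4%, in limma's test. In either direction 21 differed at an unadjusted p under 0.05, a smaller share than was called over all probe sets. At 6 h, 35 had fallen, which is 50.7% of the 69 against 31.1% of all probe sets, and 0 had risen, against 16.4%. At an unadjusted p under 0.05 in limma's test, 42 differed in either direction, a count given without its share over all probe sets. The median log2 difference of the 69 genes was -0.05 at 1 h, -0.19 at 3 h and -0.46 at 6 h, beside -0.04, -0.08 and -0.08 over all probe sets. In 49 of the 69 genes the 6 h arrays did not overlap the control arrays and lay lower, as did 34.8% of all probe sets. The genes lower at 6 h included 8 of 10 ndh genes, 4 of 15 psb genes, 2 of 5 psa genes, 2 of 6 pet genes, 1 of 6 atp genes, 3 of 4 rpo genes, 4 of 7 rpl genes and 5 of 8 rps genes. The falls ran from 0.27 (ndhE) to 1.00 (rps15) on the log2 scale, with log2 differences of -0.90 for psbK, -0.91 for psaJ and -0.90 for rpl36. Of the 14 genes lower at 3 h, 13 were also lower at 6 h, in comparisons that share their control arrays. With a fold of at least 2 asked as well, the count at 6 h was 1. The count at 3 h was 8 without the first wild-type control array, 9 without the third and 6 without the second 3 h array.

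Between salt times, which use no control array, the steps were tested after the data had been seen. In wild type 1 gene, psbB, fell from 1 h to 3 h, against 4.01% of all probe sets, and 7 fell from 3 h to 6 h, against 8.12%, while 0 rose at either step in limma's test, against 4.36% and 6.77%. The 7 were petL (-0.76), ndhA (-0.57), petG (-0.52), ndhC (-0.52), rpoC2 (-0.51), rbcL (-0.44) and psbI (-0.44), given as log2 differences. In wild type 63 of the 69 had a lower mean at 3 h than at 1 h, as had 60.1% of all probe sets. In the mutant 34 genes fell from 1 h to 3 h, which is 49.3% against 19.5% of all probe sets, 0 rose, against 11.6%, and all 69 had a lower mean at 3 h than at 1 h, as had 57.0% of all probe sets. The strongest of these falls were in ndhJ (-0.98), rps15 (-0.83) and rbcL (-0.80), again as log2 differences. From 3 h to 6 h in the mutant, 6 genes rose, against 5.74% of all probe sets, namely petN (0.60), psbJ (0.48), rpoC2 (0.46), psbM (0.45), matK (0.42) and psbF (0.30), and 0 fell, against 6.08%. In 66 of the 69 the mean was higher at 6 h than at 3 h in the mutant, where it was lower in 51.1% of all probe sets. In wild type it was lower in 64, as in 50.3% of all probe sets. The mutant count from 1 h to 3 h was 20 or 19 without the second or the third 1 h array or the first or the third 3 h array. The wild-type count from 3 h to 6 h was 2 or 0 without the first or the third 3 h array and 1 without the second 6 h array. The mutant count from 3 h to 6 h was 2 without the first 3 h array or the first or the third 6 h array and 10 without the second 6 h array. From 1 h to 3 h in wild type psbB no longer passed without any one of the 1 h arrays or without the first or the second 3 h array, the count was 0 without the first 1 h array or the first or the second 3 h array, and it was 2 without the third 3 h array.

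Without salt, plastid-encoded genes were lower in the mutant than in wild type. In this comparison 15 of the 69 genes were called lower, which is 21.7% against 0.185% of all probe sets, and 0 higher, against 0.0264%, in limma's test, while 49 differed at an unadjusted p under 0.05. The 15 were rpl20, ycf3, ycf4, psaB, rps15, rpoC1, petA, petL, rpl36, ndhD, rpoC2, matK, ndhK, rps2 and rbcL, with log2 differences from -1.79 for rpl20 to -0.72 for rbcL. The median log2 difference of the 69 genes was -0.55, beside -0.02 over all probe sets, and in 43 genes the 3 mutant arrays lay below the 3 wild-type arrays without overlap, as in 9.87% of all probe sets. Without the first mutant control array, 10 of the 69 genes were called lower, against 0.101% of all probe sets, and 9 of the 10 were among the 15. The median log2 difference was then -0.37, and 61 of the 69 differences were below 0, as were 55.6% of all probe sets. At an unadjusted p under 0.05 in limma's test 38 then differed, which is 55.1% against 6.84% of all probe sets. The genes called with all arrays but not without that one were rpoC1, petA, petL, ndhD, ndhK and rbcL, and atpH was called only without it. The count was 7, 8 and 8 without the first, second and the third wild-type control array, 33 without the third mutant control array, and 0 when only the 6 arrays of the comparison entered the fit.

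**Figure D3:**
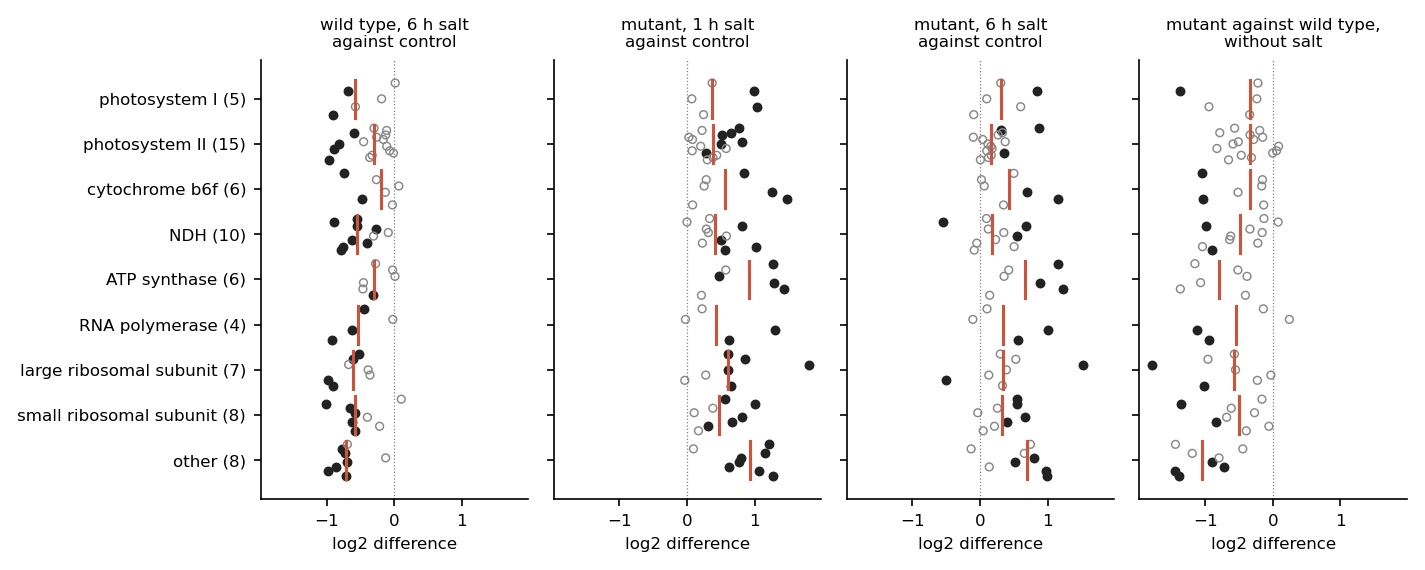
Log2 differences of the 69 plastid-encoded genes by functional class in 4 comparisons; each point is a gene, filled points passed the test at an adjusted p under 0.05, open points did not, and red bars are class medians. Most points lie left of 0 in wild type at 6 h and in the untreated mutant against wild type, and right of 0 in the mutant at 1 h.

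In the mutant, many of these genes stood above their untreated level after 1 h of salt. This comparison, that between the untreated genotypes and the differences of responses use the same 3 mutant control arrays. They are therefore not separate results. At 1 h, 38 of the 69 genes had risen, which is 55.1% against 10.6% of all probe sets, and 0 had fallen, against 13.5%, while 49 differed at an unadjusted p under 0.05 in limma's test. In 37 genes the 1 h arrays lay above the control arrays without overlap, as in 16.6% of all probe sets. The rises ran from 0.28 (log2) for psbM to 1.80 for rpl20, with 1.31 for rpoC1, 1.29 for atpF, 1.15 for cemA and 0.80 for clpP, and without the first control array these 4 had 0.88, 0.75, 0.59 and 0.37. clpP encodes the proteolytic subunit of the Clp protease, and cemA encodes a protein of the plastid envelope. At 3 h, 6 genes were higher, against 17.4% of all probe sets, and 6 lower, against 28.1%. At 6 h, 22 were higher, against 18.1%, and 2 lower, against 29.8%, the 2 being ndhC and rpl33. Of the 22 genes higher at 6 h, 20 were also higher at 1 h against the same control arrays. The median log2 differences of the 69 genes were 0.56, 0.07 and 0.33 at 1 h, 3 h and 6 h, beside -0.02, -0.08 and -0.08 over all probe sets.

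The first mutant control array changed the size of these responses, and at 3 h their direction. Without it, 28 genes were higher at 1 h, against 7.9% of all probe sets, and 27 of them were among the 38. The median log2 difference at 1 h was then 0.31. At an unadjusted p under 0.05 in limma's test 38 then differed, which is 55.1% against 31.4% of all probe sets. At 3 h without it, 1 gene (petL) was higher, against 15.9%, and 14 were lower, against 28.0%, with a median of -0.09. At 6 h without it, 17 were higher, against 17.0%, and 4 lower, against 29.9%, with a median of 0.12. The 14 genes lower at 3 h then were led by psbZ (-0.62), ndhC (-0.54) and rps16 (-0.51), as log2 differences. With only the 6 arrays of each comparison in the fit, 10, 4 and 12 genes were called at 1 h, 3 h and 6 h. The 3 h count was 6 without the second 3 h array, and the 6 h count was 38 without the third mutant control array. At 1 h the 38 calls became 24 with array weights.

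Under salt the genotypes were compared at each time, and calls came only at 3 h. At 1 h, 0 of the 69 genes were called by limma in either direction, against 0.00879% of all probe sets higher and 0.0132% lower, and 3 had an unadjusted p under 0.05. The median log2 difference, mutant minus wild type, was -0.005 at 1 h, and the fit with array weights called 1 gene. At 3 h, 8 genes were lower in the mutant, against 5.92% of all probe sets, and 0 higher, against 4.32%, while 17 differed at an unadjusted p under 0.05 in limma's test. The 8 were ndhJ (-0.81), ndhK (-0.61), rbcL (-0.48), psbI (-0.46), matK (-0.43), rps2 (-0.39), atpI (-0.33) and ndhI (-0.32), as log2 differences. In 37 genes the mutant arrays at 3 h lay below the wild-type arrays without overlap, as in 21.1% of all probe sets. The mutant 3 h arrays also had the lowest 25S rRNA signals of the salt arrays, the part of which was not tested. These 8 calls were sensitive to single arrays, with 0, 4 and 0 calls without the first, second and the third wild-type 3 h array and 0, 5 and 1 without the first, second and the third mutant 3 h array. The leaf gene RCA, for Rubisco activase, was also lower in the mutant at 3 h, by a log2 difference of -0.86. Its log2 levels at 3 h were 6.08, 7.15 and 6.18 in wild type and 5.51, 5.58 and 5.75 in the mutant, so that the second wild-type array was highest. The difference of RCA was -0.51 (adjusted p = 0.0949) without that array and -0.81 (adjusted p = 0.0856) without the first mutant array, neither called, and its part in the result was not tested. At 6 h, 0 genes were called by limma, against 0.0747% of all probe sets higher and 0.514% lower, while 19 had an unadjusted p under 0.05. The difference at 6 h was above 0 in 63 of the 69, with a median of 0.23 beside -0.01 over all probe sets, and in 23 the mutant arrays lay above the wild-type arrays without overlap, as in 6.03%. Without the third wild-type 6 h array 1 gene was called at 6 h, and without the second mutant 6 h array 2 were.

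The salt responses of the genotypes differed most at 6 h. The difference of responses, mutant minus wild type, passed the test in 6 of the 69 genes at 6 h, all higher, against 0.0615% of all probe sets higher, and in 0 lower, against 0.0176%. It was 1.96 (adjusted p = 0.0318) for ycf3, 1.63 (adjusted p = 0.016) for petL, 1.48 (adjusted p = 0.00499) for rpoC2, 1.24 (adjusted p = 0.035) for rpl36, 1.22 (adjusted p = 0.00499) for matK and 1.03 (adjusted p = 0.0146) for rps2, as log2 differences. For each of the 6, the wild-type level fell by 6 h with all arrays (the call of petL was lost without any one of 4 single arrays), with log2 differences from control of -0.98, -0.48, -0.92, -0.90, -0.70 and -0.62 in the same order. In the mutant the corresponding differences were 0.98, 1.15, 0.57, 0.33, 0.52 and 0.40, of which that of rpl36 did not pass the test. Without the first control array the mutant differences were 0.58, 0.93, 0.67, 0.12, 0.36 and 0.41. The response of each gene thus had opposite signs in the genotypes, with or without that array. rps2 belongs to the small ribosomal subunit. In wild type, rps2 had log2 levels of 7.61, 7.50 and 7.60 without salt, 7.32, 7.22 and 7.30 at 1 h, 7.24, 7.04 and 7.25 at 3 h and 6.92, 7.05 and 6.88 at 6 h. In the mutant, rps2 had log2 levels of 6.74, 6.48 and 6.97 without salt, 7.23, 7.42 and 7.52 at 1 h, 6.68, 6.98 and 6.70 at 3 h and 7.14, 6.96 and 7.30 at 6 h. rps2 thus lay lower in each later wild-type group. rpl36 belongs to the large ribosomal subunit. In wild type, rpl36 had log2 levels of 10.45, 10.41 and 10.63 without salt, 10.25, 10.28 and 10.35 at 1 h, 10.17, 9.85 and 10.11 at 3 h and 9.56, 9.53 and 9.69 at 6 h. In the mutant, rpl36 had log2 levels of 9.05, 9.65 and 9.74 without salt, 9.84, 10.39 and 10.18 at 1 h, 9.40, 9.88 and 9.54 at 3 h and 9.80, 9.72 and 9.92 at 6 h. rpl36 had its lowest wild-type arrays at 6 h and its lowest mutant array in the control. Over the 69 genes the median difference of responses at 6 h was 0.82, beside 0.01 over all probe sets.

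When the first mutant control array was left out, 12 of the 69 genes passed the test of the difference of responses at 6 h, against 0.0791% of all probe sets higher, and these included all 6. The other 6 of these were rpl20 (1.62), ycf4 (1.26), rpoC1 (1.22), psaB (1.11), atpH (1.07) and psbI (0.72), as log2 differences. The median over the 69 genes was then 0.60. At 1 h and 3 h, 0 genes passed limma's test of the difference of responses, against 0.0% higher and 0.0% lower of all probe sets at 1 h and 0.787% and 0.668% at 3 h, while 37 and 15 had an unadjusted p under 0.05. The medians at 1 h and 3 h were 0.51 and 0.28, or 0.36 and 0.09 without that array. Without it, 31 and 9 had an unadjusted p under 0.05 in limma's test. These are 44.9% and 13.0%, against 3.02% and 15.7% of all probe sets. The count at 6 h was 2 without the first wild-type control array, 3 without the second or without the first wild-type 6 h array, 18 without the third mutant control array, 2, 12 and 2 without the first, second and the third mutant 6 h array, and 0 with only the 12 arrays of the 4 groups in the fit. Without the third mutant control array, 4 genes passed at 1 h and 1 at 3 h, and 2 passed at 1 h with a robust prior.

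**Figure D4:**
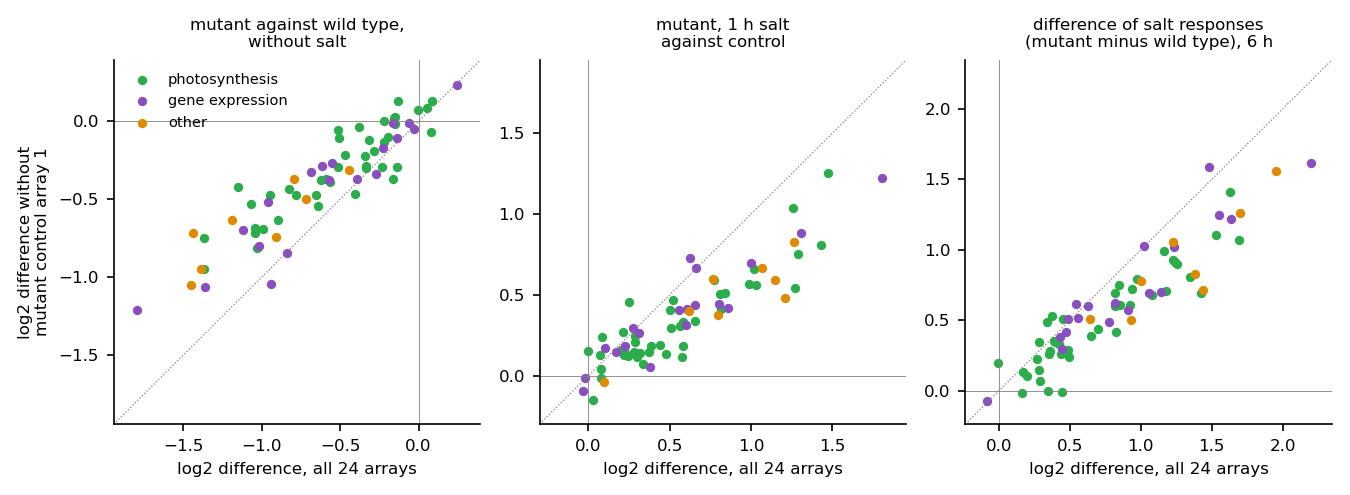
Log2 differences of the 69 genes with all 24 arrays (horizontal axis) against those without the first mutant control array (vertical axis), in 3 comparisons; colours mark the functional groups and the dotted line marks equal values. Most points lie nearer to 0 without the array and on the same side of 0.

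Photosynthesis genes and gene expression genes had medians of the same sign in wild type at 3 h and 6 h, in the mutant at 1 h and between the untreated genotypes, where those of the gene expression genes lay farther from 0 with all arrays. This difference between the groups was not tested, and in the mutant without the first control array the medians were -0.10 for photosynthesis and -0.05 for gene expression genes at 3 h and 0.13 and 0.12 at 6 h. In wild type at 6 h, 17 of 42 photosynthesis genes and 12 of 19 gene expression genes had fallen, against 31.1% of all probe sets, with median log2 differences of -0.32 and -0.58. At 3 h the counts were 4 of 42 and 7 of 19, against 23.5%, with medians of -0.17 and -0.24. In the mutant at 1 h, 19 of 42 and 12 of 19 had risen, against 10.6%, with medians of 0.46 and 0.60, and without the first control array 12 and 9 had, against 7.9%, with medians of 0.24 and 0.41. Without salt, 5 of 42 and 6 of 19 were lower in the mutant, against 0.185%, with medians of -0.44 and -0.57, and without that array 2 and 5 were, against 0.101%, with medians of -0.29 and -0.34. The groups also differed in signal, since 13 of 42 photosynthesis genes and 3 of 19 gene expression genes had a mean log2 level under 5. Among genes with a mean of at least 5, the medians in wild type at 6 h were -0.45 and -0.59, and those in the mutant at 1 h were 0.57 and 0.62. The 8 other genes had a median of -0.72 in wild type at 6 h, with 6 lower, and of -1.05 in the untreated mutant against wild type, with 4 lower, or -0.68 with 3 lower without the first mutant control array.

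The single complexes also differed in their medians. In wild type at 6 h the median log2 difference was -0.55 for the 10 ndh genes and -0.57 for the 5 psa genes, and -0.30 for the 15 psb genes, -0.29 for the 6 atp genes and -0.20 for the 6 pet genes. The atp genes had the largest median of the photosynthetic complexes in the mutant at 1 h, 0.92, and in the untreated mutant against wild type, -0.79. At 1 h 4 of 6 were called higher, against 10.6% of all probe sets, and without salt 0 of 6 were called lower, against 0.185%. With the first mutant control array left out, these medians were 0.41 and -0.44, and that of the pet genes in the mutant at 1 h, 0.48, was the larger. The atp counts were then 3 of 6 higher at 1 h, against 7.9% of all probe sets, and 1 of 6 lower without salt, against 0.101%. Among the genes known to be read by phage-type polymerases, accD, rpoB, rpoC1 and rpoC2 had log2 differences of -0.69, -0.02, -0.63 and -0.92 in wild type at 6 h, of which those of rpoC1 and rpoC2 passed. In the mutant at 1 h they had 1.21, -0.02, 1.31 and 0.62, of which all but that of rpoB passed, and 0.48, -0.01, 0.88 and 0.73 without the first control array. The rpoB probe set had a mean under 5, near the background.

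Neighbouring plastid genes can be read as runs, and whether members of a run moved more alike than other genes was not tested. The 13 runs were written from known transcription units with results of these data in view, and psbN in the psbB run is transcribed the other way. Of all probe sets, 31.1% were called lower in wild type at 6 h. In the mutant at 1 h 10.6% were called higher, and without salt 0.185% were called lower in the mutant. The 4 genes from psaI to petA (psaI, ycf4, cemA and petA) had log2 differences of -0.74 to -0.57 in wild type at 6 h, with 3 called, of 0.84 to 1.27 in the mutant at 1 h, with 4 called, and of -1.39 to -0.94 in the untreated mutant against wild type, with 2 called. When the first mutant control array was left out, the untreated differences were -0.48 for psaI, -0.95 for ycf4, -0.64 for cemA and -0.72 for petA. The untreated differences of this run thus kept their direction without that array. Its rises in the mutant at 1 h were smaller without it for ycf4 and cemA, as given above. The 3 genes ndhJ, ndhK and ndhC were all lower in wild type at 6 h, while in the untreated mutant ndhC had a difference of 0.08 beside -1.04 and -0.90, or -0.07 beside -0.68 and -0.64 without that array. The 5 genes from atpA to rps2 had a median of 1.27 in the mutant at 1 h, with 4 called, and single values of 0.54 (atpA), 0.75 (atpF), 0.81 (atpH), 0.27 (atpI) and 0.66 (rps2) without the first control array. The 4 genes from psbJ to psbE showed small differences, with medians of -0.14, 0.08 and -0.05 in these 3 comparisons and 0 called in each. In the run from petL to rps18, petL and petG rose in the mutant at 1 h, by 1.48 and 1.26, beside -0.03 for rpl33 and 0.10 for rps18. In the run of rps14, psaB and psaA, psaB alone was lower in wild type at 6 h, with -0.69 beside 0.10 and 0.02, and both of these neighbours had means under 5.

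**Figure D5:**
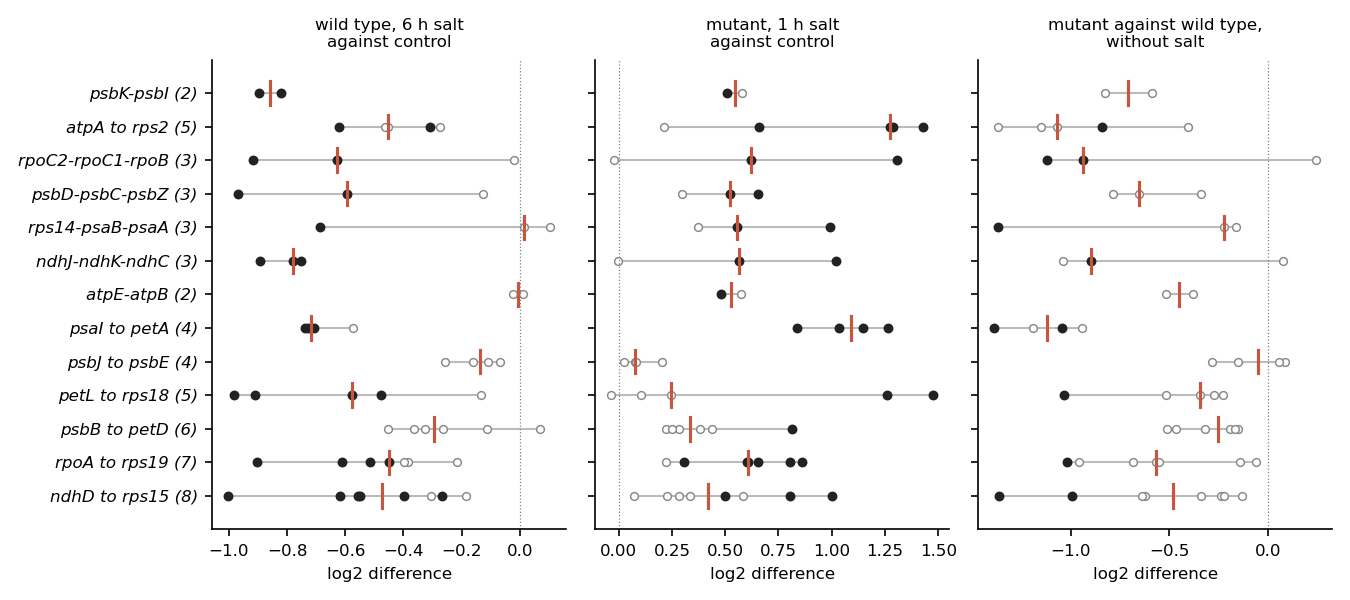
Log2 differences of the genes in 13 runs of neighbouring plastid genes (number of genes in brackets) in 3 comparisons; filled points passed the test, open points did not, red bars are run medians and grey lines span the run. The run from psbJ to psbE lies near 0 in all 3 panels, and the run from psaI to petA lies away from 0 in each.

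Other gene groups give the setting of these values. The inverted repeat of the plastid genome carries some genes in a pair of copies, and 8 probe sets that name both copies of 7 such genes are not among the 69. Of these 8, 2 were lower in wild type at 6 h, against 31.1% of all probe sets, 5 were higher in the mutant at 1 h, against 10.6%, and 0 were called by limma between the untreated genotypes (6 at an unadjusted p under 0.05), where their median log2 difference was -0.59. With the first mutant control array left out, these counts were 4 at 1 h, against 7.9%, and 2 lower without salt, against 0.101%, with a median of -0.31. Mitochondrion-encoded genes moved in part alongside, and 16 of 33 could be read. Their median shift from the wild-type control mean was -0.73 to -0.30 on the untreated mutant arrays and -0.19 to 0.05 at 1 h. It was -0.59 to -0.40 at 3 h and -0.12 to 0.02 at 6 h in the mutant. They thus also began low there, lay higher at 1 h, lower at 3 h and higher at 6 h. In wild type at 3 h it was -0.21 to -0.09. In the untreated mutant 4 of the 16 were lower, against 0.185% of all probe sets, with a median of -0.49, and in the mutant at 1 h 9 were higher, against 10.6%, with a median of 0.42. When the first mutant control array was left out, 1 was lower, against 0.101%, and 4 were higher, against 7.9%, in these comparisons, with medians of -0.35 and 0.32. In wild type at 6 h, 3 of the 16 were higher, against 16.4% of all probe sets, and 5 lower, against 31.1%, with a median of -0.22, and cox1, a core subunit of cytochrome oxidase, had a response difference of 1.90 at 6 h, or 1.71 without the first mutant control array. Without that array the response difference at 6 h was above 0 in 16 of the 16, against 50.3% of all probe sets. Its median was 0.40, and 2 were called higher, against 0.0791%. Of the nuclear genes for plastid ribosomal proteins, 8 of 30 could be read, and 7 of the 8 were lower at 3 h and at 6 h in each genotype, against 23.5% and 31.1% of all probe sets in wild type and 28.1% and 29.8% in the mutant, with medians of -0.47 in wild type and -0.47 in the mutant at 6 h. Between the untreated genotypes 0 of these 8 were called by limma (1 at an unadjusted p under 0.05), where their median was -0.09. Of the nuclear photosynthesis genes, 8 of 43 could be read, and in wild type at 6 h 2 were lower, against 31.1%, namely ATPC1 (-0.90) and LHCB4.1 (-0.45). In the mutant at 6 h 3 of these 8 were higher, against 18.1%, namely PSBW (0.87), PSAE1 (0.70) and RCA (0.56), and 1 was lower, against 29.8%. Without the first control array these differences were 0.87, 0.65 and 0.60, of which that of RCA did not pass. The mean log2 levels of these 3 over all arrays were 5.26, 4.24 and 6.05, so PSAE1 lay near the background, and their part in the plastid values was not tested.

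Markers of other tissue could be read only in part. The green leaf marker RCA, Rubisco activase, was the 1 of 10 that could be read, with group mean log2 levels of 5.61 to 6.47, and its difference between the untreated genotypes was -0.20, or -0.24 without the first mutant control array (neither called). RCA was higher in the mutant at 6 h than in its control, by 0.56 (log2), though not called without the first mutant control array. The root hair expansins EXPA7 and EXPA18, 2 of 11 root markers, fell in both genotypes at each salt time, by 1.89 and 2.04 (log2) at 6 h in wild type, and were not called between the untreated genotypes, with differences of -0.16 and 0.14, or 0.02 and 0.18 without the first mutant control array. Of the nuclear sigma factors and phage-type polymerases 1 of 9 could be read, RPOTMP, which was higher in the mutant at 6 h, by 0.38 (log2), or 0.38 without the first control array. Of the plastid RNA processing genes 1 of 12 could be read, CRP1, which was higher in the mutant at 1 h, 3 h and 6 h, by 0.40, 0.45 and 0.38, though not called at 1 h and 6 h without the first control array, and of 13 polymerase-associated proteins 0 were read. The part of cell composition, RNA quality or the untreated mutant arrays in these differences was not tested.

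With all arrays, 13 of the 69 plastid-encoded genes passed the test in none of the comparisons with control, between genotypes or between responses. They were atpB, ndhF, petB, petD, petN, psaA, psaC, psbE, psbL, psbN, psbT, rpl32 and rpoB, and 7 of the 13 had a mean log2 level under 5. Steps between salt times are left out of this count. In the mutant petN rose from 3 h to 6 h, where 5.74% of all probe sets were called higher. From 1 h to 3 h in the mutant, 3 of the 4 genes from psbJ to psbE, a run that includes psbE and psbL, fell, against 19.5% of all probe sets. atpB, which encodes the beta subunit of the ATP synthase, had log2 differences of -0.02 in wild type at 6 h and 0.57 in the mutant at 1 h, or 0.11 without the first mutant control array. psbE, a subunit of cytochrome b559, had -0.26 and 0.03, and petD, subunit IV of the cytochrome complex, had 0.07 and 0.25 in the same comparisons. Without that array the mutant values were -0.15 for psbE and 0.46 for petD. Of the 6 pet genes, 4 were then called higher in the mutant at 1 h, against 7.9% of all probe sets. At least 1 pet gene of this list thus passed there without that array.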

How the data were processed

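Transcript levels were measured on 24 Affymetrix ATH1 arrays, 3 in each of 8 groups. The deposited values are log2 expression levels per probe set, and the submitters' processing notes name RMA (background correction, quantile normalization and summary of probes), affy and limma, without versions, and TAIR 9. Quantile normalization gives all arrays nearly the same distribution, so differences are relative to the other transcripts, and scanner files were not analysed here. Genes were named from the platform's gene table, with 13513 probe sets of 1 gene, 503 of several and 8794 unnamed. One limma (3.58.1, R 4.3.3) fit of 8 group means used all 24 arrays and 22746 probe sets, leaving out 64 control probe sets. P-values were adjusted by Benjamini-Hochberg over all probe sets of a comparison, and a gene was called at an adjusted p under 0.05. Counts at an unadjusted p under 0.05 are no results of their own. With all arrays most of these counts stand without their share over all probe sets, so they are not to be read as an excess. Without the first mutant control array, 31.4%, 49.7% and 52.1% of all probe sets met that bound in the mutant at 1 h, 3 h and 6 h. No filter was set, and 16 of the 69 genes had a mean log2 level under 5, called near the background. The number of arrays limits the precision. Salt was compared with control within each genotype, the genotypes at each time, and the responses by an interaction term, and steps between salt times were added after the data had been seen. The genes, lists and tests were chosen with earlier results of these data known. Array values are given for the genes named in the choice of the set, for rbcL, for the highest-mean member of each class and for up to 3 called members with the largest difference in each direction, and genes named in the counts of 8 or fewer, in the runs and in the lists come beside these. The scripts were tested on simulated data.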

Additional observations from a re-analysis of the deposited data

Results flagged for a closer look

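The salt responses of the genotypes at 6 h differed in limma's interaction test for 6 plastid-encoded genes. The difference of responses, mutant minus wild type on the log2 scale, was 1.96 for ycf3, 1.63 for petL, 1.48 for rpoC2, 1.24 for rpl36, 1.22 for matK and 1.03 for rps2. With all arrays each was lower than control at 6 h in wild type, though the call of petL was lost without certain single arrays, as given above. With only the groups of the comparison in the fit, no plastid-encoded gene passed this interaction test. All but rpl36 were called higher at 6 h in the mutant with all arrays. There the difference of rpl36 was above 0 but not called. The mutant differences without the first control array are given above.

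Outside the plastid genes, the poly(A) spike-in dap stood at a log2 level of 8.20 on the first mutant control array, against at most 3.43 on the other 23 arrays. Its part in the plastid values of that array was not tested.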

How the results depend on the processing

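The counts of called plastid-encoded genes depended on single arrays and on which arrays shared the estimate of the spread. Apart from the fit without the first mutant control array, the share of all probe sets was not counted under these settings, here or above. These counts show how the calls changed, not how they stand beside all probe sets. Counts are given in the order wild type at 1 h, 3 h and 6 h (4, 14 and 35), mutant at 1 h, 3 h and 6 h (38, 12 and 24), genotypes without salt and at 1 h, 3 h and 6 h (15, 0, 8 and 0), and responses at 1 h, 3 h and 6 h (0, 0 and 6). With the arrays left out in turn, the counts ran from 3 to 6, 6 to 14 and 25 to 32 in wild type, from 28 to 45, 6 to 18 and 20 to 38 in the mutant, from 7 to 33, 0 to 0, 0 to 5 and 0 to 2 between genotypes, and from 0 to 4, 0 to 1 and 2 to 18 for the responses. For the steps between salt times, with 1 and 7 calls in wild type and 34 and 6 in the mutant, they ran from 0 to 2, 0 to 8, 19 to 36 and 2 to 10.

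With only the groups of a comparison in the fit, the count was 9 in wild type at 1 h, 10, 4 and 12 in the mutant, 0 between untreated genotypes, 15 between genotypes at 3 h, 0 for the response at 6 h, and 3 and 52 for the steps from 1 h to 3 h in wild type and mutant. With array weights it was 7 in wild type at 1 h, 24 in the mutant at 1 h, 1 and 19 between genotypes at 1 h and 3 h, and 2 and 17 for the wild-type steps. A minimum mean of 5 left 1 call in wild type at 1 h. Centring the arrays on their medians left 5 calls between genotypes at 3 h, a second quantile normalization left 0 for the wild-type step from 1 h to 3 h, and a robust prior gave 2 for the response at 1 h. Without the first mutant and the third wild-type control array, a choice made after seeing the data, 4 genes were called between untreated genotypes and 2 for the response at 6 h.

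At an adjusted p under 0.01 the counts were 5 and 22 in wild type at 3 h and 6 h, 25 and 4 in the mutant at 1 h and 3 h, 5 and 0 between genotypes without salt and at 3 h, 2 for the response at 6 h, and 0, 1, 16 and 1 for the 4 steps. At an adjusted p under 0.05 and a fold of at least 2, they were 0, 0 and 1 in wild type, 14, 1 and 5 in the mutant, 9 and 0 between genotypes without salt and at 3 h, and 0 for each of the 4 steps. The cause of these changes was not tested, except that stricter thresholds can only lower a count.

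The replicate number did not pair the arrays. Deviations of same-numbered arrays had correlations of -0.56 to 0.72, with a median of -0.003 over 84 pairs, and 10 of 24 arrays correlated best with their own number. With the replicate block the counts were 4, 15 and 35 in wild type, 39, 13 and 25 in the mutant, 14, 0, 10 and 0 between genotypes, 0, 0 and 6 for the responses, and 2 for the wild-type step from 1 h to 3 h.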
